A study of Mus musculus with 8 samples.

Results

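The miR-106b, miR-93 and miR-25 cluster was followed here through 3 mature microRNAs (miRNAs), mmu-miR-106b-5p, mmu-miR-93-5p and mmu-miR-25-3p, written below without the mouse prefix. They were chosen by name, as the arms of the cluster that are usually measured, out of 611 mouse miRNAs on the array, and all 3 were among the 142 that passed the filter on low signals. The cells were C3H10T1/2, an established line of mouse mesenchymal cells with a hedgehog response. In the WT group they received wild type IhhN, the signalling part of Indian hedgehog, and in the MT group the E95K mutant of it, which causes brachydactyly type A1 in people. Both proteins were purified and given at 750 nM for 48 h. The control group was incubated for the same time and is labelled as not induced with protein, although its label repeats the dose. All groups shared the medium with heat-inactivated serum. Each group had 2 RNA samples (n = 2), and each WT RNA was placed on 2 arrays, giving 8 arrays in all. The methods state that induction assays were repeated, but neither they nor the labels say that the RNA samples of a group came from separate cultures, so the p-values measure only the spread between these samples, which may be technical.

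The 3 miRNAs are cut from hairpins in an intron of Mcm7, the gene for a subunit of the helicase that opens DNA for replication. A host gene and its intronic miRNAs can share a transcript, so cluster mates leave the nucleus as separate hairpins cut from a common precursor, and each is then trimmed, loaded and degraded on its own. The cluster is a relative of the miR-17 to miR-92a cluster and is known for limiting Cdkn1a and Bcl2l11, which restrain the cell cycle and survival. miR-106b-5p and miR-93-5p belong to the miR-17 family by their seed, the bases that pair first with a target, and miR-25-3p belongs to the miR-92 family. The question put to the arrays was whether the cluster mates moved together across the 3 induction groups.

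The mature sequences show which members and relatives share a seed. They were taken from RefSeq, written 5′ to 3′, with the seed (bases 2 to 8) in capitals.
miR-106b-5p: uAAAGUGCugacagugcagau
miR-93-5p: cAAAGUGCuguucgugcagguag
miR-20a-5p, of the miR-17 to miR-92a cluster: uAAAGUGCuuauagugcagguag
miR-25-3p: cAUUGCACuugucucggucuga
miR-92a-3p, of the miR-17 to miR-92a cluster and its X chromosome counterpart: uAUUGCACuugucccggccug
miR-106b-5p and miR-93-5p had the same seed and were identical at 16 of 21 positions counted from the 5′ end, and miR-106b-5p matched miR-20a-5p at 18 of 21. miR-25-3p had another seed, matched miR-106b-5p at 5 of 21 positions and matched miR-92a-3p at 18 of 21. G and C made up 42.9% of miR-106b-5p, 52.2% of miR-93-5p and 50% of miR-25-3p.

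The hairpins are shown because they place the 3 members on the same precursor, in the order in which it is transcribed, with the measured arm in capitals. In GRCm38.p6 they lie on the minus strand of chromosome 5, within the span of Mcm7.
Mir106b, chr5:138165737-138165818: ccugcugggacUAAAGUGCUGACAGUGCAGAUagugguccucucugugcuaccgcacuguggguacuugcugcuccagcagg
Mir93, chr5:138165523-138165610: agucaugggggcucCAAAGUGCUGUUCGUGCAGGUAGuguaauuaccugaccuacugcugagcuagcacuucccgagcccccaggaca
Mir25, chr5:138165321-138165404: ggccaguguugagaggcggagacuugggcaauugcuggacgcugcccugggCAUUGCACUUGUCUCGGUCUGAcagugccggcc
Between Mir106b and Mir93 lie 126 bases, and between Mir93 and Mir25 lie 118. The measured arm is the 5p arm of the first pair and the 3p arm of Mir25.

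Levels were scaled spot intensities on a log2 scale, in which 1 unit is a doubling. An array detected between 104 and 150 mouse miRNAs. Its 75th percentile signal over the 174 probes detected on all arrays, which was used for scaling, was 606 to 785 units in the control group, 442 to 565 in the WT group and 432 to 442 in the MT group. The first array of WT replicate 1 and the array of MT replicate 1 detected the fewest miRNAs and had the highest noise among negative control spots, with SDs of 6.63 and 5.61 units against 2.91 to 3.76 elsewhere. All 8 arrays lay on 1 slide. WT replicate 1 and both MT samples were on its left side, and the controls with WT replicate 2 on its right side. Neither side thus held both MT and control samples. All WT arrays lay in row 1 of the slide, and all MT and control arrays in row 2. An effect of the row and one of the wild type protein thus cannot be told apart. Of 6 miRNAs listed as mesenchymal markers, 5 were detected on every array and miR-145-5p on 7 of 8. Of 23 listed markers of other cell types, miR-128-3p was detected, on 5 arrays, and the other 22 on none. Among these, miR-9 and miR-150 were read as their 3p arm and miR-200b and miR-302a as their 5p arm. The opposite arms of these hairpins were not part of the count. No cell counts accompany the arrays, and in such bulk RNA fewer cells of a type and less RNA per cell cannot be told apart.

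Against control cells, the cluster mates did not move in the same direction. With either IhhN protein, and with the scaling used here, miR-106b-5p was lower than in control cells, while miR-93-5p and miR-25-3p were higher, each by at most 1.57-fold. Under other scalings these signs change, as described further on with the plot of the scalings. Without scaling all 3 members were lower than in control cells for both proteins, and with normexp background correction all 3 were higher. The side of each member relative to the median of all miRNAs did not change, but some of the scalings shift all miRNAs alike and could hardly change it. The samples of the WT and control groups did not overlap for any of the 3 members, and nor did those of the MT and control groups, but 64.8% and 67.6% of all 142 miRNAs tested were separated as well. None of the 3 members passed an adjusted p of 0.05 in any comparison, and neither did any other miRNA (0% of 142 called in each of the 3 comparisons by limma with Benjamini-Hochberg adjustment). At an unadjusted p under 0.05, miR-106b-5p and miR-93-5p, but not miR-25-3p, were past the threshold against control in both induced groups, where 28.2% of all miRNAs were past it for WT and 39.4% for MT. In the comparison of WT with MT this held for 0 of 142.

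miR-106b-5p, the first member in the transcript and a miRNA of the miR-17 family that targets Cdkn1a, was dim on these arrays. Its log2 level was 5.39 and 5.53 in the WT samples, 5.58 and 5.50 in the MT samples and 5.89 and 6.08 in the control samples. Every induced sample thus lay below both control samples, with the lowest value in WT replicate 1. Before scaling, its signal was 35.7 to 48.1 units on the WT arrays, 37.7 to 40.9 on the MT arrays and 79.1 to 89.5 on the control arrays. It was detected on 7 of 8 arrays. On the first array of WT replicate 1, 4 of its 10 spots were well above background, around a mean of 42.5 units. The difference of WT from control was -0.52 ± 0.16 (SE, limma, unadjusted p = 0.012, adjusted p = 0.139), a 1.44-fold lower level. That of MT from control was -0.44 ± 0.16 (limma, unadjusted p = 0.025, adjusted p = 0.089), 1.36-fold lower.

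miR-93-5p, which shares its seed with miR-106b-5p, went the other way with the scaling used here. Its log2 level was 7.12 and 7.10 in the WT samples, 7.42 and 7.18 in the MT samples and 6.57 and 6.74 in the control samples. The induced samples lay above the control samples, and MT replicate 1 was the highest. It was detected on all 8 arrays, with every spot used well above background. The difference of MT from control was 0.65 ± 0.16 (limma, unadjusted p = 0.0051, adjusted p = 0.061), the 8th smallest p of 142 in that comparison. It passed the threshold when only the 103 miRNAs detected on all arrays were tested (adjusted p = 0.032, with 28.2% of miRNAs called) and with all 8 arrays fitted and a random block for the RNA sample (adjusted p = 0.047, with 7.75% called). That of WT from control was 0.45 ± 0.16 (limma, unadjusted p = 0.026, adjusted p = 0.139). Its signal before scaling hardly separated the groups, at 118 to 148 units on the WT arrays, 121 to 146 on the MT arrays and 124 to 144 on the control arrays.

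miR-25-3p, the member with the miR-92 seed and a regulator of Bcl2l11, showed the smallest differences. Its log2 level was 7.13 and 6.99 in the WT samples, 7.12 and 7.03 in the MT samples and 6.84 and 6.65 in the control samples. All 4 induced samples were above the control samples, and the nearest values, of WT replicate 2 and control replicate 1, were 0.15 apart, less than the 0.17 between the 2 arrays of WT replicate 1. The difference from control was 0.32 ± 0.15 for WT (limma, unadjusted p = 0.081, adjusted p = 0.210) and 0.33 ± 0.15 for MT (limma, unadjusted p = 0.069, adjusted p = 0.151).

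**Figure D1:**
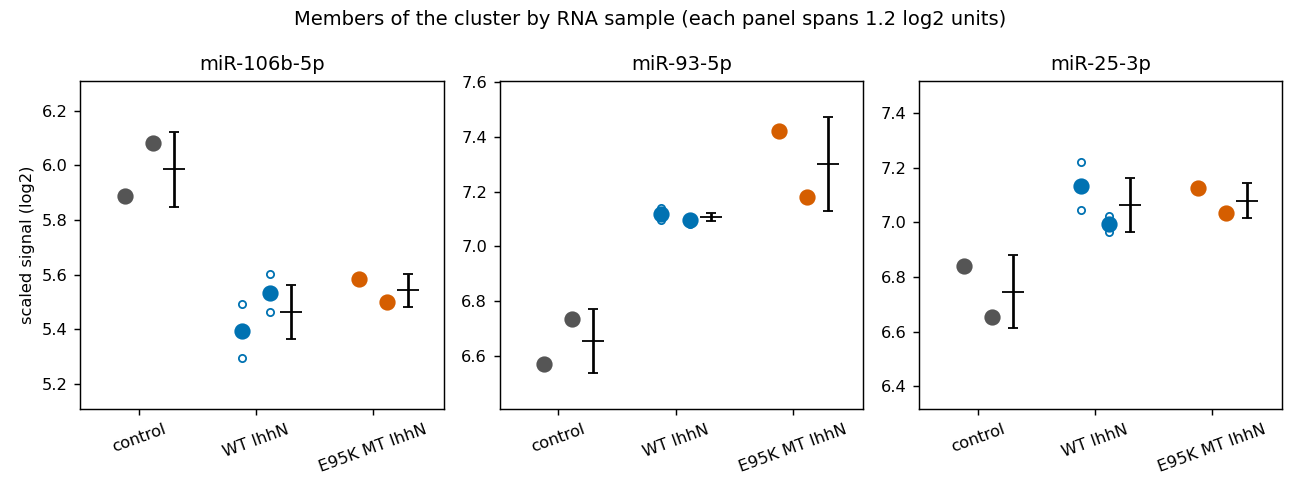
Scaled signal (log2, vertical axis) of miR-106b-5p, miR-93-5p and miR-25-3p in the control, WT IhhN and E95K MT IhhN groups. Filled points are RNA samples, small open points the 2 arrays of each WT sample, and black bars the mean ± SD of the 2 samples. With this scaling, induced samples lie below control samples for miR-106b-5p and above them for miR-93-5p and miR-25-3p, signs that other scalings turn. The panels have different ranges of the same height, and levels are not comparable between miRNAs.

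Between wild type and mutant protein the members differed little. WT minus MT was -0.08 for miR-106b-5p (95% interval -0.45 to 0.29), -0.19 for miR-93-5p (-0.57 to 0.19) and -0.02 for miR-25-3p (-0.38 to 0.35), with limma adjusted p of 0.990, 0.990 and 1. The samples of the WT and MT groups did not overlap for miR-93-5p, with WT lower, and overlapped for the other 2 members. Of all miRNAs, 26.1% did not overlap. The intervals admit differences of up to 1.36-fold for miR-106b-5p, 1.49-fold for miR-93-5p and 1.30-fold for miR-25-3p, so equal levels under the 2 proteins were not shown.

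Whether cluster mates moved together was measured more directly by the difference between 2 members on the same array. A factor that multiplies all signals of an array cancels from it, but an added background or the floor does not. The size of such a difference depends on the probes, so only its change between groups was read. miR-106b-5p minus miR-93-5p was -1.73 and -1.56 in the WT samples, -1.84 and -1.68 in the MT samples and -0.68 and -0.65 in the control samples. The induced samples lay together and well below the control samples. The change was -0.98 ± 0.21 for WT against control (SE, limma, unadjusted p = 0.0028) and -1.09 ± 0.21 for MT against control (limma, unadjusted p = 0.0015), corresponding to 1.97- and 2.13-fold. When all 10011 pairs of tested miRNAs were fitted in the same way, the adjusted p of this pair was 0.187 and 0.097. In that fit 0% of pairs were called in any comparison, while 21.7% of pairs for WT and 30.5% for MT had an unadjusted p under 0.05. An exact permutation test over the 3 groups gave p = 0.133, where the design allows no p below 0.067.

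The difference between miR-106b-5p and miR-25-3p changed in the same sense. It was -1.74 and -1.46 in the WT samples, -1.54 and -1.53 in the MT samples and -0.95 and -0.57 in the control samples, again without overlap. The change was -0.84 ± 0.24 for WT (limma, unadjusted p = 0.011, adjusted p = 0.187) and -0.78 ± 0.24 for MT (limma, unadjusted p = 0.015, adjusted p = 0.104), with an exact permutation p of 0.200. The difference between miR-93-5p and miR-25-3p, whose seeds differ, changed less with the brighter probes. It was -0.01 and 0.10 in the WT samples, 0.30 and 0.15 in the MT samples and -0.27 and 0.08 in the control samples. The change against control was 0.14 ± 0.23 for WT (limma, adjusted p = 0.758) and 0.31 ± 0.23 for MT (limma, adjusted p = 0.375), and the exact permutation p was 0.267. Its 3 group means spanned 0.31, which became 0.18 without control replicate 1 and 0.49 without control replicate 2. With the dimmer probes its change for MT was 0.71, larger in size than the -0.63 of miR-106b-5p minus miR-25-3p. No correlation between members across samples is given, since the induced and control samples formed separate clusters of 4 and 2 samples for each member.

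**Figure D2:**
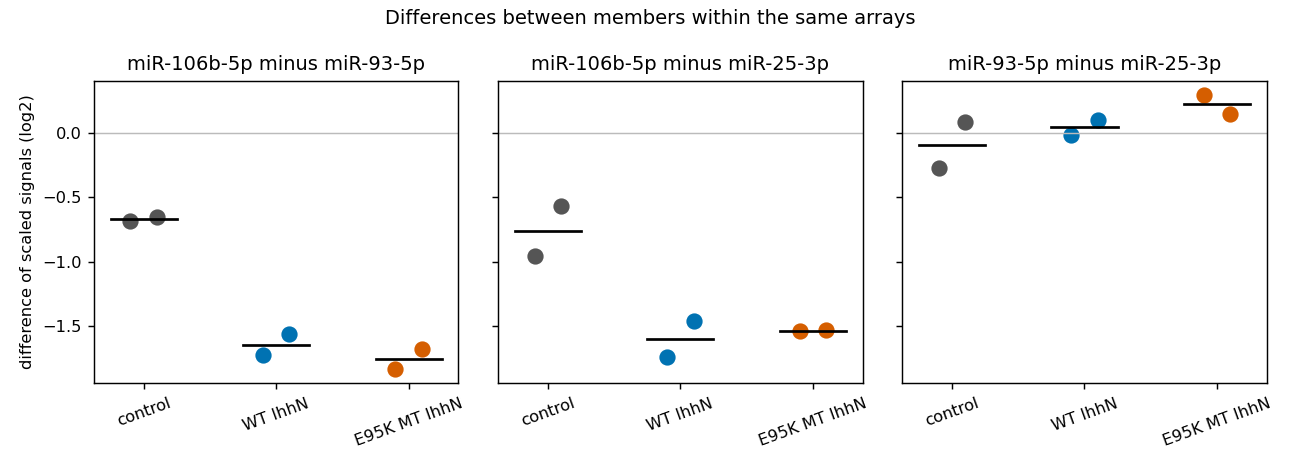
Difference between the log2 levels of 2 cluster members within each RNA sample (vertical axis, log2) in the control, WT IhhN and E95K MT IhhN groups. Points are RNA samples and lines the means of 2 samples. miR-106b-5p minus miR-93-5p lies at -0.68 and -0.65 in control samples and between -1.84 and -1.56 in induced samples, while miR-93-5p minus miR-25-3p stays within 0.30 of 0.

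Unscaled signals were lower overall in the induced groups, and the direction of a member against control depended on how the arrays were brought to a common level. Over 6 ways of scaling or background correction, the median difference of all tested miRNAs ranged from -0.32 to 0.23 for WT and from -0.51 to 0.17 for MT. Relative to that median, miR-106b-5p was lower and miR-93-5p and miR-25-3p were higher under all 6, for both WT and MT. For WT the distance from the median was -0.72 to -0.14 for miR-106b-5p, 0.25 to 0.38 for miR-93-5p and 0.15 to 0.27 for miR-25-3p. For MT it was -0.80 to -0.08, 0.40 to 0.61 and 0.13 to 0.28. The difference itself changed sign in several of these. Without any scaling, miR-93-5p differed from control by -0.04 for WT and -0.01 for MT and miR-25-3p by -0.18 and -0.33, whereas miR-106b-5p was lower by -1.01 and -1.10 and passed the threshold (limma, adjusted p = 0.017 and 0.0038), as did 19.7% and 32.4% of all miRNAs. With normexp background correction, which adds an offset of 50 signal units, miR-106b-5p was 0.09 and 0.08 above control and not below it. There miR-93-5p passed the threshold in both comparisons (limma, adjusted p = 0.045 and 0.011), as did 15.5% of miRNAs for WT and 28.2% for MT. The change of miR-106b-5p relative to miR-93-5p shrank under normexp to -0.39 for WT and -0.48 for MT.

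**Figure D3:**
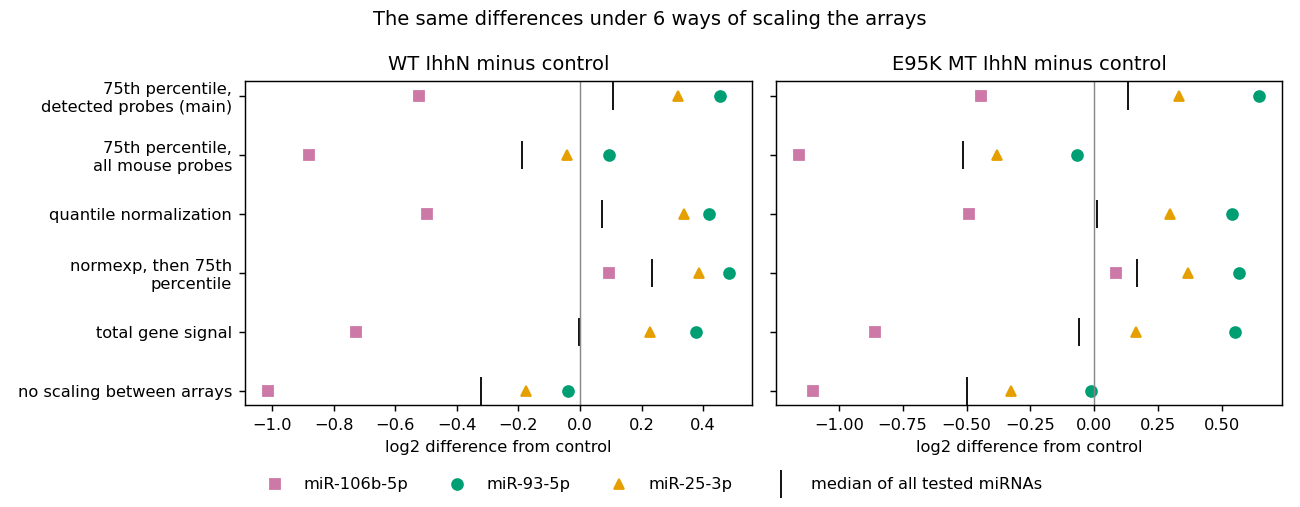
Difference from control (log2, horizontal axis) of the 3 members and of the median tested miRNA (black tick) under 6 ways of scaling or background correction, for WT IhhN (left) and E95K MT IhhN (right). Squares, for miR-106b-5p, lie left of the tick and circles and triangles right of it in every line, while their position against 0 shifts. Lines that differ only by a factor for each array could hardly change these sides.

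Each member had a second, dimmer probe, which gives another reading of the same RNA. The second probe of miR-106b-5p was detected on 5 of 8 arrays and read -0.63 for WT and -0.43 for MT against control. That of miR-93-5p, also detected on 5 arrays, read 0.32 and 0.91, and that of miR-25-3p, detected on 6, read 0.15 and 0.20. All 6 values had the sign of the brighter probe and none passed the threshold (limma), but they rest in part on arrays where the second probe was not detected. That of miR-106b-5p was at the floor on both arrays of WT replicate 1, so its -0.63 depends on the floor. That of miR-93-5p had 4 spots well above background in MT replicate 1, which gave its highest value. WT minus MT for miR-93-5p, -0.59 with the second probe and -0.19 with the brighter one, rests in part on the same MT sample.

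Within a side of the slide, the WT and control samples on the right side could be compared without the left side. Their rows on the slide still differed, as did those of the WT and MT samples on the left side. There miR-106b-5p in WT replicate 2 was -0.45 ± 0.18 from the control samples, miR-93-5p 0.44 ± 0.20 and miR-25-3p 0.25 ± 0.18 (SE, limma, adjusted p = 0.547, 0.547 and 0.626). On the left side, WT replicate 1 differed from the MT samples by -0.15, -0.18 and 0.05. MT and control samples met on neither side, and a fit that takes the effect of the side from the WT samples put MT at -0.30, 0.63 and 0.20 from control (limma, adjusted p = 0.945 for each). In these fits the spread of the single WT sample was taken from the other groups. All 3 differences from control had the same sign within the right side as over both sides. This was fixed in advance, since no WT sample overlapped the control samples, so it shows neither an effect of the side nor its absence.

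Relatives of the cluster were also found on both sides of control with the scaling used here. A list of 28 miRNAs from the other arms of the hairpins, the miR-17 to miR-92a cluster, its X chromosome counterpart and other carriers of the 2 seeds had 20 on the array, of which 16 were detected on no array, miR-106b-3p, miR-93-3p and miR-17-5p among them. The other 4 were tested, and 0 passed an adjusted p of 0.05 in any comparison. Their median difference was -0.29 for WT and -0.22 for MT against control, beside 0.11 and 0.13 over all miRNAs tested. The medians of the 3 cluster members were 0.32 and 0.33. Of the 4 relatives, miR-19b-3p and miR-20b-5p passed the filter only through the control group, so their place below control is not independent of the filter.

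miR-92a-3p, which has the seed of miR-25-3p and is made by the miR-17 to miR-92a cluster and its X chromosome counterpart, was higher in induced cells. Its log2 level was 7.55 and 7.55 in the WT samples, 7.62 and 7.60 in the MT samples and 7.04 and 7.13 in the control samples, a difference of 0.47 ± 0.14 for WT and 0.53 ± 0.14 for MT (limma, adjusted p = 0.139 and 0.061). miR-20a-5p, which has the seed of miR-106b-5p and miR-93-5p, was on the side of miR-106b-5p, at 5.44 and 5.75 in the WT samples, 5.64 and 5.68 in the MT samples and 6.01 and 5.82 in the control samples. It differed from control by -0.32 ± 0.17 and -0.25 ± 0.17 (limma, adjusted p = 0.232 and 0.288). miR-20b-5p, with the same seed and identical to miR-20a-5p at 21 of 23 positions, read -0.26 and -0.19 (limma, adjusted p = 0.337 and 0.455), and the probes of such near-identical miRNAs may share signal. The 3 tested carriers of the AAAGUGC seed other than miR-93-5p were below control with this scaling, but with normexp all 3 were above it (miR-20a-5p by 0.21 for WT and 0.15 for MT, miR-20b-5p by 0.20 and 0.14), and with the total gene signal miR-20a-5p was 0.16 above it for WT.

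miR-19b-3p, a miRNA of the same clusters with the miR-19 seed, differed most of the 4. It was 4.45 and 5.59 in the WT samples, 4.98 and 5.40 in the MT samples and 6.06 and 6.26 in the control samples, -1.14 ± 0.36 and -0.97 ± 0.36 from control (limma, adjusted p = 0.139 and 0.099). It was detected on 2 of 4 WT arrays, 1 of 2 MT arrays and both control arrays, and passed the filter only through the control group. The methods name a fold change above 2 as a criterion for differentially expressed genes, not for miRNAs. It was met by miR-19b-3p for WT and by none of the 3 cluster members. Of all miRNAs, 2.11% met it for WT and 0.704% for MT. The value of miR-19b-3p rests on WT replicate 1, where it was detected on neither array, and WT replicate 2 alone was -0.57 from control. Relative to the median of all miRNAs, miR-92a-3p was higher (0.25 to 0.50) and miR-19b-3p lower (-1.49 to -0.31) under all 6 scalings for both proteins. Some of these scalings shift all miRNAs alike and could hardly change this. The array cannot assign either to 1 of these 2 clusters. miR-92a-3p itself was below control for MT by -0.19 at the lowest of the 6.

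**Figure D4:**
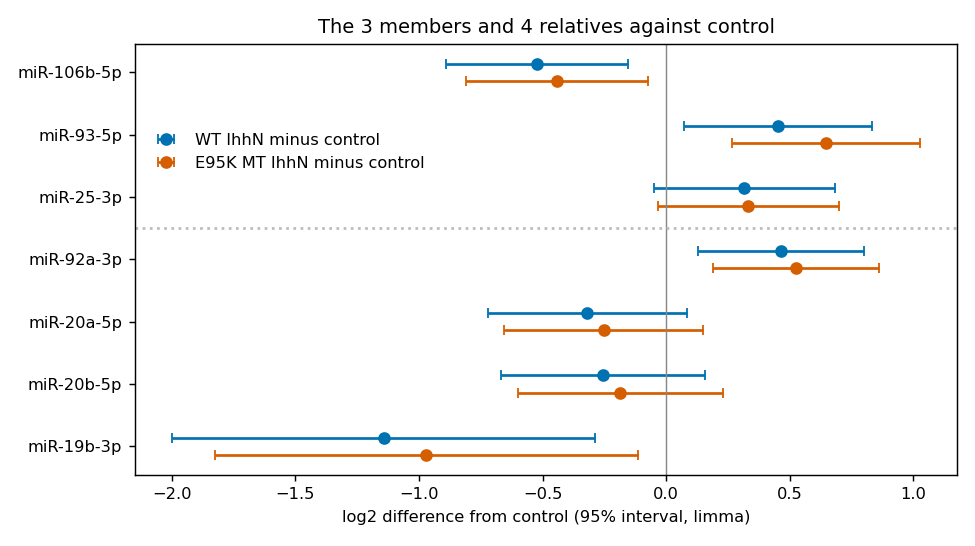
Difference from control (log2, horizontal axis) of the 3 cluster members (above the dotted line) and 4 relatives, for WT IhhN (blue) and E95K MT IhhN (orange), with 95% intervals from limma. miR-93-5p, miR-25-3p and miR-92a-3p lie above 0, and miR-106b-5p, miR-20a-5p, miR-20b-5p and miR-19b-3p below it, for both proteins with the scaling used here, signs that other scalings turn for all but miR-19b-3p.

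Base composition moved with these differences. A mature sequence was found by exact name for 118 of the 142 tested miRNAs (83.1%). Across these miRNAs, the share of G and C correlated with the difference from control at r = 0.48 for WT and r = 0.52 for MT, given as a description. The miRNAs were read on the same arrays and are not independent replicates. In the tertile of miRNAs with the least G and C (31.8 to 40.9%) the median difference was -0.24 for WT and -0.23 for MT, and in the tertile with the most (52.2 to 72.7%) it was 0.31 and 0.50. miR-19b-3p and miR-20a-5p, at 39.1% each, fell in the lowest tertile, and miR-93-5p and miR-92a-3p, at 52.2% and 57.1%, in the highest. miR-106b-5p and miR-25-3p both lay in the middle tertile (42.9 to 50%), the first at its lowest share and the second at its highest. The median there was 0.18 for WT and -0.0034 for MT. The part of base composition in the split between the members was not tested. Brightness did not move with the differences over all 142 miRNAs (r = 0.05 between mean signal and difference for WT and -0.01 for MT), although miR-106b-5p was in the dimmest tertile and the other 2 members in the middle tertile.

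**Figure D5:**
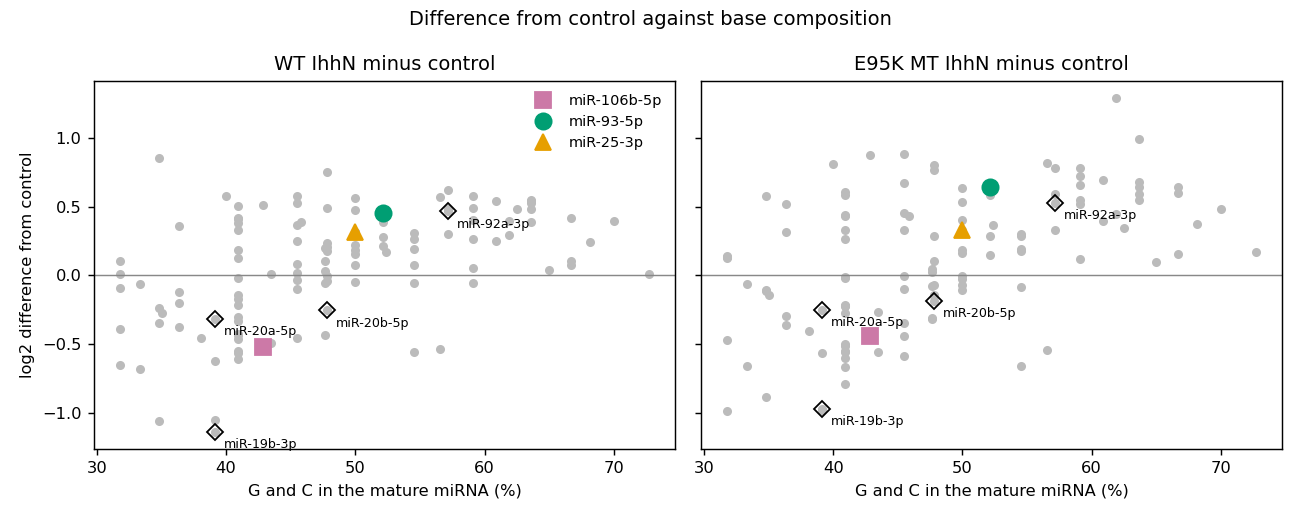
Difference from control (log2, vertical axis) against the percentage of G and C in the mature sequence (horizontal axis) for 118 tested miRNAs (grey), with the 3 cluster members coloured and 4 relatives as open diamonds, for WT IhhN (left) and E95K MT IhhN (right). Points tend to rise from left to right, with miR-106b-5p to the left of miR-25-3p and miR-93-5p and below them.

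The miRNAs whose pattern over the 6 RNA samples was most like the mean of the 3 members, each centred on its own mean, were miR-669f-3p (r = 0.99), miR-500-3p (0.97), miR-669n (0.96), miR-455-3p (0.94) and miR-149-5p (0.93). The least like were miR-28-5p and miR-30b-5p (both -0.96). Since 1 member opposed the other 2 with the scaling used here, miR-106b-5p partly cancels miR-93-5p and miR-25-3p in this mean. Chosen after the values were seen, the pattern most like that of miR-93-5p alone was let-7a-5p (r = 0.996). For miR-25-3p alone it was miR-199b-5p (0.991), and for miR-106b-5p alone miR-218-5p (0.976). The samples of each member formed clusters of 4 induced and 2 control samples. Of all miRNAs, 64.8% separated WT from control and 67.6% MT from control. The r values of single members may thus mostly restate that split. The mean of the 3 members, with its partial cancelling, need not hold the same split. miR-669f-3p, the most like that mean, lay 0.32 above control for WT and 0.76 for MT. All these r values are given as a description.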

How the data were processed

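miRNAs of C3H10T1/2 cells were measured on 8 one-colour Agilent arrays of 1 slide, 2 RNA samples in each of 3 groups. The scanner tables that the authors deposited were made with Feature Extraction (version 10.7.1.1 in the file headers and 9.1 in the submitters' processing notes) and hold the background-subtracted intensity of every spot, with mm9 as the build. A deposited table of the whole series held the same intensities to within 0.005 units. For the authors' normalization, the sources used here give nothing. The labels and the methods also differ in the amount of RNA, and the methods name a gene expression array.

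Control and outlier spots were left out, the spots of a probe were averaged, and each array was divided by its 75th percentile over the 174 probes detected on all arrays, put back on the mean scale and floored at 4.08 on the log2 scale. A probe was detected where over 50% of its spots were well above background. The brightest probe stood for a miRNA, and the arrays of each WT sample were averaged. The 142 of 611 miRNAs with detection throughout 1 or more groups were fitted with all 3 groups in limma version 3.58.1 in R version 4.3.3, with Benjamini-Hochberg over all 142 and a threshold of 0.05, without a replicate block. The fit was tested on simulated data. Differences between members were also tested with an exact permutation test over 90 assignments of the samples. Figures were drawn with matplotlib version 3.10.9. Sequences came from RefSeq (GRCm38.p6).

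The members and lists were chosen with earlier results of these data known. The rule for naming took the 3 members, the tested miRNAs of the list of relatives, and the 5 most and 2 least like patterns. Alternatives covered scaling, background correction, floor, filter, probes, spots, technical arrays, blocks, the side of the slide and leaving out each replicate. No scaling, the dimmer probe and the fit across pairs were chosen after seeing the data. The number of arrays limits the precision.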

Additional observations from a re-analysis of the deposited data

How the results depend on the processing

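No member passed the threshold in the fit reported, and in the comparison of WT with MT none did under any alternative run. Against control, 127 of 142 values of the members under the alternatives kept their sign and stayed short of the threshold. This count does not measure how stable the signs are, since many alternatives cannot change the difference itself. With a block, another filter or without a replicate of a group not compared, only the test changes. Counts of members past the threshold became 1 for WT with normexp and without scaling, and 1 for MT with normexp, without scaling, with only miRNAs detected on all 8 arrays and with a random block for the RNA sample. The last 2 concern miR-93-5p (limma, adjusted p = 0.032 and 0.047), where 28.2% and 7.75% of miRNAs were called, and miR-106b-5p was not tested in the first of them. Leaving out each replicate gave 0 members in each comparison. Over all of these alternatives the adjusted p of miR-93-5p for MT against control ranged from 0.011, with normexp, to 0.983, without scaling.

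Signs turned as follows. Against control, miR-106b-5p was 0.093 for WT and 0.085 for MT with normexp. With the 75th percentile over all mouse probes miR-25-3p was -0.041 for WT and -0.38 for MT, and miR-93-5p -0.068 for MT. Without scaling miR-93-5p was -0.038 and -0.011, and miR-25-3p -0.18 and -0.33. For WT minus MT, miR-106b-5p was 0.28 with all mouse probes, 0.13 with the total gene signal, 0.0087 with normexp and 0.087 without scaling, and miR-93-5p was 0.16 with all mouse probes. There miR-25-3p was 0.34 with all mouse probes, 0.042 with quantile normalization, 0.063 with the total gene signal, 0.018 with normexp, 0.15 without scaling, 0.013 with the second technical array alone and 0.053 with a term for slide side, and leaving out each replicate gave -0.085 to 0.053. The cause was not tested.

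The range of the group means of miR-106b-5p minus miR-93-5p, 1.09, became 1.41 with the total gene signal, 0.48 with normexp, 1.21 with the mean of all probes, 0.93 with a term for slide side and 1.34 with the dimmer probe, and 1.01 to 1.17 without each replicate. That of miR-106b-5p minus miR-25-3p, 0.84, became 0.29 with normexp and 0.65 to 1.03 without each replicate. That of miR-93-5p minus miR-25-3p, 0.31, became 0.51 with the mean of all probes, 0.71 with the dimmer probe and 0.18 to 0.49 without each replicate, the highest without control replicate 2 and the lowest without control replicate 1.

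Among the relatives, 2 calls arose with normexp (miR-92a-3p for WT and MT), 1 with miRNAs detected on all arrays (miR-92a-3p for MT) and 0 to 1 without each replicate, the 1 being miR-19b-3p for MT without MT replicate 2 (limma, adjusted p = 0.046). Correlations of same-numbered deviations were 0.02 between WT and MT, 0.39 between WT and control and -0.46 between MT and control. From 2 samples a group, these cannot show whether the replicate numbers pair the samples. With the replicate number as a block, 0 members passed, and miR-93-5p for MT against control stayed at 0.65 (limma, adjusted p = 0.084). The planned correlations between members across samples were not run, since the samples formed clusters too small for them.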
